A study of Mus musculus with 18 samples.

Results

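The miRNAs mmu-miR-192-5p, mmu-miR-194-5p, mmu-miR-215-5p and mmu-miR-194-1-3p, written below without the species prefix, were followed in the Argonaute 2 (Ago2) of mouse colonic epithelium with and without oncogenic K-Ras. They were the 4 of 459 rows of the deposited miRNA table chosen by name: the guide strands of 3 miRNAs known from the intestine, and the passenger strand of the hairpin miR-194-1. The 3 other arms listed for the same hairpins, miR-194-2-3p, miR-215-3p and miR-192-3p, are given beside them. The libraries came from HEAP, a CLIP-seq method in which a Halo-tagged Ago2 is pulled down after UV crosslinking and the miRNAs and RNA fragments it holds are sequenced. The G12D group carried 1 allele each of Halo-Ago2, Fabp-Cre and K-Ras-G12D, and the WT group carried Halo-Ago2 and Fabp-Cre with unaltered K-Ras, so the tagged Ago2 and the Cre were shared by both. Animals were C57BL/6 mice 8 to 12 weeks old, and the tissue was scraped from the distal colon. Each group had 3 miRNA libraries and 3 pulldown mRNA libraries among the 18 libraries of the series, and the 6 input libraries were not analysed here. The labels do not say in which cells Cre had acted, nor whether the libraries of a group were made from different mice, and p-values here measure only how far libraries differed from each other.

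A miRNA is cut from a hairpin as a short duplex, of which 1 strand, the guide, usually stays in Argonaute while the passenger strand is released and degraded. The guide finds its targets mainly through its seed, nucleotides 2 to 8. miR-192, miR-194 and miR-215 are abundant in intestine, liver and kidney, and their genes are known to be activated by hepatocyte nuclear factors and by p53.

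The mature sequences are shown because of 2 features that matter for the comparisons, the seed shared by miR-192 and miR-215 and the identical guide of both miR-194 hairpins. All 7 arms were matched by name in RefSeq (GRCm38.p6), and capitals mark the seed.
miR-194-5p: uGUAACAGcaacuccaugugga
miR-192-5p: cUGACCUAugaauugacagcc
miR-215-5p: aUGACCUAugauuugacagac
miR-194-1-3p: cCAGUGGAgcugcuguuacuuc
miR-194-2-3p: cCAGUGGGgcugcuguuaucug
miR-215-3p: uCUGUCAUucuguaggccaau
miR-192-3p: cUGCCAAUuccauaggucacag
Counted from the 5′ end, miR-215-5p and miR-192-5p were identical at 18 of 21 positions and differed by A1C, U12A and A20C, all outside the seed. The matching site in a target reads TAGGTCA for both, against CTGTTAC for miR-194-5p. miR-194-5p had the same sequence in both of its hairpins, so its reads could not be split between them. The passenger strands could be split: miR-194-1-3p and miR-194-2-3p differed by A8G, C19U, U20C and C22G, and the first of these changes lies in the seed.

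The 4 hairpins lie in 2 pairs on the plus strand of GRCm38.p6. Mir194-1 (chr1:185313319-185313385) and Mir215 (chr1:185313581-185313692) are 195 bases apart, within the gene body of Iars2, a mitochondrial isoleucyl-tRNA synthetase gene on the opposite strand. Mir194-2 (chr19:6264643-6264728) and Mir192 (chr19:6264844-6264932) are 115 bases apart and overlap no other gene of the RefSeq table. miR-215-5p and miR-194-1-3p can therefore come only from the chromosome 1 pair, miR-192-5p and miR-194-2-3p only from the chromosome 19 pair, and miR-194-5p from both.

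The miRNA libraries held 337788 to 433245 reads in G12D and 437439 to 535932 reads in WT. The pulldown mRNA libraries held 148927 to 723937 reads in merged peaks in G12D and 54401 to 148770 reads in WT. All 9 epithelial marker genes examined had an Ago2 peak, and none of the 5 smooth muscle and blood marker genes did. The summed level of 7 epithelial miRNAs was 72110 to 87896 normalized reads in G12D and 51489 to 80603 in WT, and 1 of the 7, miR-200b-3p, was called higher in G12D. Of the 4 tested miRNAs of smooth muscle and stroma and the 5 of blood and endothelium none was called, with sums of 163 to 256 normalized reads in G12D and 161 to 361 in WT for the first list, and of 1732 to 2294 in G12D and 1940 to 3426 in WT for the second. Of 3 enteroendocrine and neural miRNAs, miR-9-5p was called higher, and their sum was 8756 to 10564 normalized reads in G12D and 7303 to 8517 in WT. The part of these cells in the results below was not tested.

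The guide strands were among the most abundant miRNAs in Ago2, and the passenger strands were minor. By mean normalized reads over the 6 libraries, miR-194-5p ranked second, miR-192-5p ranked 9 and miR-215-5p ranked 16 of 459, whereas miR-194-1-3p ranked 159. With the deposited scaling miR-194-5p and miR-192-5p were called higher in G12D, miR-215-5p did not pass the test, and miR-194-1-3p was called lower. The calls of miR-194-5p and miR-192-5p held in only 7 and 2 of 18 processing alternatives, in that order.

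miR-194-5p had 22875, 33180 and 30335 normalized reads in the G12D libraries, against 19625, 24797 and 15668 in the WT libraries. The lowest G12D library lay below the highest WT library, so the groups overlapped. The means were 28797 ± 5322 in G12D and 20030 ± 4578 in WT (SD, n = 3 each), and the log2 fold change of G12D over WT was 0.53 ± 0.18 (SE, limma on log2(normalized reads + 1), adjusted p = 0.0339 over 254 miRNAs). In this test 15.7% of all miRNAs passed, 9.06% in the higher direction.

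miR-192-5p, the guide that shares its seed with miR-215-5p, had 16458, 15803 and 14497 normalized reads in G12D, against 13155, 10285 and 9711 in WT. Every G12D library lay above every WT library, as held for 16.1% of all tested miRNAs. The means were 15586 ± 998 in G12D and 11051 ± 1845 in WT (SD, n = 3 each), with a log2 fold change of 0.51 ± 0.18 (SE, limma, adjusted p = 0.0491).

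miR-215-5p had 8733, 8489 and 7390 normalized reads in G12D, against 10515, 6187 and 6764 in WT. The WT libraries spanned both ends of the range, with replicate 1 above and the other two below all G12D libraries. The means were 8204 ± 715 in G12D and 7822 ± 2350 in WT (SD, n = 3 each), and the log2 fold change of 0.11 ± 0.20 (SE) did not pass (limma, adjusted p = 0.793).

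**Figure D1:**
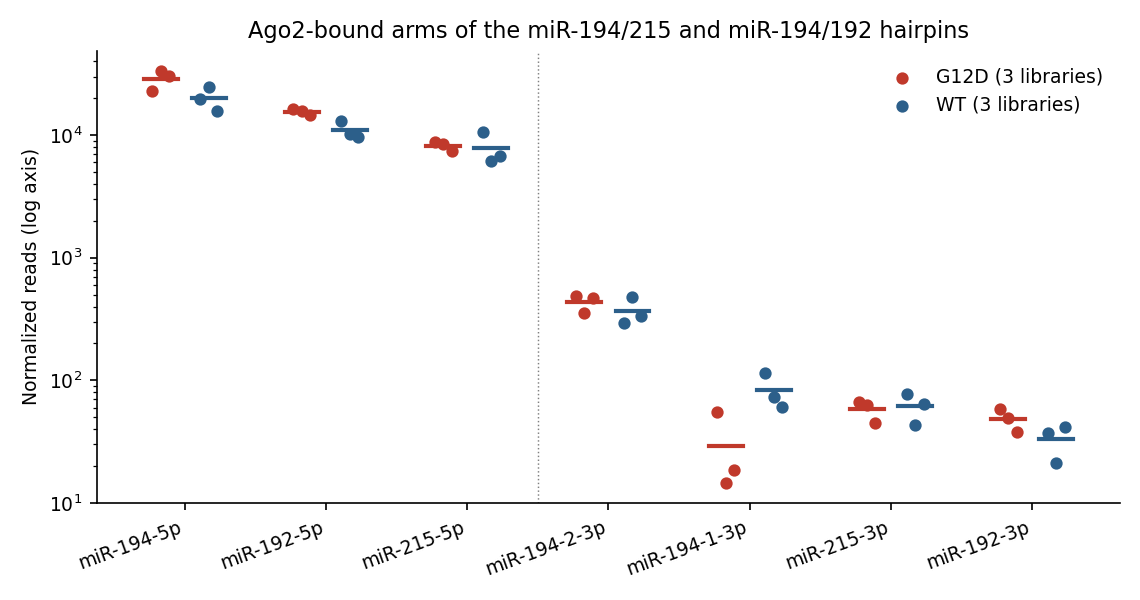
Normalized reads (log axis) of the 3 guide strands, left of the dotted line, and the 4 passenger strands, right of it. Points are libraries and horizontal bars are means of 3 libraries, with G12D in red left of WT in blue. The guides lie between 6187 and 33180 normalized reads, and miR-194-1-3p is the only arm shown whose G12D libraries all lie below its WT libraries.

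These calls of the guides depended on the scaling. The deposited factors left G12D libraries with 462531 to 517334 normalized reads in all and WT libraries with 348678 to 414529, and the median log2 fold change of all tested miRNAs was 0.11. With the same total for every library that median was -0.26, and the log2 fold changes were 0.17 for miR-194-5p (adjusted p = 0.483), 0.14 for miR-192-5p (adjusted p = 0.543) and -0.26 for miR-215-5p (adjusted p = 0.332). The 40 miRNAs called were 23 higher and 17 lower with the deposited factors, and 37 were called, 6 higher and 31 lower, with equal totals. Over 18 alternatives, miR-194-5p passed in 7 (adjusted p 0.00337 to 0.975) and miR-192-5p in 2 (adjusted p 0.00741 to 0.859). The call of miR-192-5p was lost without each library except WT replicate 1, with adjusted p from 0.0969 to 0.175. That of miR-194-5p was lost without G12D replicate 2 (adjusted p = 0.188), G12D replicate 3 (0.144) or WT replicate 3 (0.191). In the authors' deposited table the log2 fold changes were 0.49 for miR-194-5p (adjusted p = 0.216), 0.47 for miR-192-5p (adjusted p = 0.179) and 0.064 for miR-215-5p (adjusted p = 0.911), so none of the guides passed there, where 9.23% of 325 miRNAs did.

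As a share of all reads of a library, which needs no scaling factor, no guide passed a test between the groups. miR-194-5p made up 4.95, 6.41 and 6.46% of reads in G12D, against 4.73, 6.80 and 4.49% in WT (exact permutation test, two-sided, p = 0.6). miR-192-5p made up 3.56, 3.05 and 3.09% in G12D, against 3.17, 2.82 and 2.79% in WT (exact permutation test, p = 0.3). miR-215-5p made up 1.89, 1.64 and 1.57% in G12D, against 2.54, 1.70 and 1.94% in WT (exact permutation test, p = 0.2). Together the 3 guides took 10.9 ± 0.416% of all miRNA reads in G12D and 10.3 ± 1.05% in WT (SD, n = 3 each). The smallest p that 3 libraries against 3 can give is 0.1, and the adjusted values over 9 shares ran from 0.675 to 0.9.

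The passenger strand miR-194-1-3p went against its guide. It had 54.8, 14.7 and 18.4 normalized reads in G12D, from 40, 11 and 17 reads, against 114, 73.5 and 60.6 in WT, from 120, 108 and 81 reads. All G12D libraries lay below all WT libraries, as held for 13.4% of tested miRNAs, although the highest G12D library, replicate 1, was near the lowest WT library, replicate 3. The means were 29.3 ± 22.2 in G12D and 82.6 ± 27.7 in WT (SD, n = 3 each), a 2.82-fold lower mean in G12D, and the log2 fold change was -1.65 ± 0.45 (SE, limma, adjusted p = 0.010), where 6.69% of all miRNAs were called lower. As a share of reads it was 0.0118% (Wilson 95% interval 0.00870 to 0.0161), 0.00283% (0.00158 to 0.00507) and 0.00392% (0.00245 to 0.00628) in G12D, against 0.0274% (0.0229 to 0.0328), 0.0202% (0.0167 to 0.0243) and 0.0174% (0.0140 to 0.0216) in WT, where intervals cover counting error only. It was also called lower in the authors' deposited table, with a log2 fold change of -1.21 and an adjusted p of 0.0200. The call held in 16 of 18 alternatives and was lost without a variance trend (adjusted p = 0.0605) and without G12D replicate 2, the library with the fewest reads of it (-1.29, adjusted p = 0.0540).

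None of the other passenger strands passed. miR-194-2-3p, from the chromosome 19 hairpin with the same guide, had 486, 354 and 466 normalized reads in G12D, against 292, 481 and 334 in WT (log2 fold change 0.26, limma, adjusted p = 0.647). miR-215-3p had 67.1, 62.6 and 44.5 in G12D, against 76.8, 43.6 and 63.6 in WT (log2 fold change -0.061, limma, adjusted p = 0.944). miR-192-3p had 58.9, 49.3 and 38.0 in G12D, against 37.0, 21.1 and 41.9 in WT (log2 fold change 0.57, limma, adjusted p = 0.393). In each of these the groups overlapped.

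**Figure D2:**
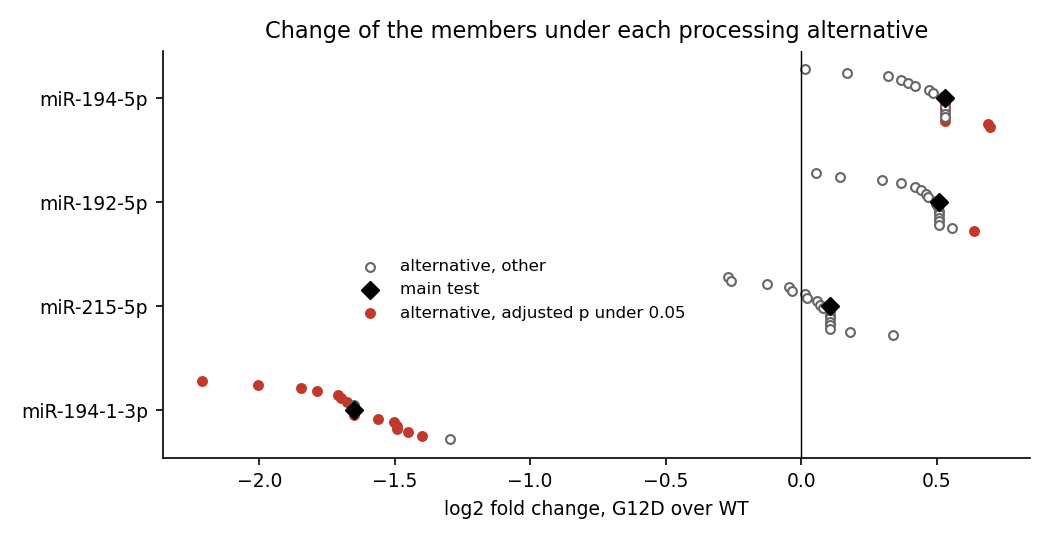
The log2 fold change of G12D over WT (horizontal axis) for each of the 4 miRNAs under the main test (black diamonds) and 18 processing alternatives (circles, red where the adjusted p was under 0.05). miR-194-1-3p stays below 0 in all of them and miR-194-5p and miR-192-5p stay above 0, but most circles of miR-192-5p are open, and those of miR-215-5p lie on both sides of 0.

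The level of miR-194-1-3p against miR-194-5p was tested as a ratio within each library, which no scaling factor can alter. A lower ratio does not show that the arms changed in opposite directions. For every 100 reads of miR-194-5p there were 0.239, 0.0442 and 0.0608 reads of miR-194-1-3p in G12D, against 0.579, 0.297 and 0.387 in WT. The groups did not overlap, and the mean log2 ratio was lower by 2.23 in G12D, a 4.69-fold difference (exact permutation test, two-sided, p = 0.1, the smallest possible; 0.2 adjusted over 4 ratios). For comparison, the ratio of the 2 arms was fitted for all 68 hairpins with both arms at a mean of at least 10 normalized reads. miR-194-1 had the lowest passenger ratio of all, 0.229 reads per 100 reads of the guide over the 6 libraries, and the largest fall, with a log2 change of -2.18 ± 0.55 (SE, limma, adjusted p = 0.0488). It was the only hairpin called, which is 1.47% of those tested, and 14.7% had G12D libraries all below WT libraries. The guide in this ratio comes from both hairpins, so the ratio is not that of 1 hairpin alone.

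The call over hairpins was a narrow one. Its adjusted p was 0.105 without a variance trend, 0.142 with the trend set on the mean log2 ratio, and 0.0969, 0.195 and 0.0929 without G12D replicate 2, G12D replicate 3 and WT replicate 3, while the ratio itself stayed between -2.90 and -1.71 without any 1 library. The same fit gave -0.27 for miR-194-2-3p over miR-194-5p (adjusted p = 0.752), -0.17 for the 2 arms of miR-215 (adjusted p = 0.890) and 0.062 for those of miR-192 (limma, adjusted p = 0.950).

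**Figure D3:**
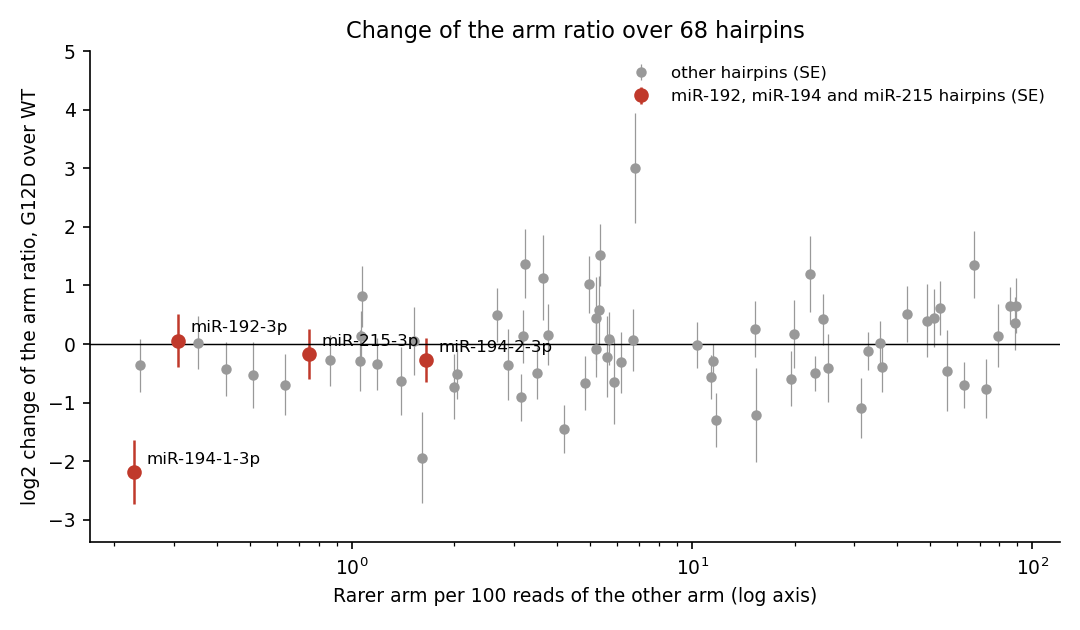
The log2 change of the ratio of the rarer arm to the other arm, G12D over WT, with its SE (vertical axis), against the level of the rarer arm per 100 reads of the other (horizontal log axis), for 68 hairpins. The 4 hairpins of the chromosome 1 and 19 pairs are red and labelled by their passenger strand. miR-194-1-3p lies at the lower left, at 0.229 per 100 and -2.18, while the other 3 lie within 0.3 of 0.

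The 2 genomic pairs could be compared through arms that belong to only 1 of them. In each of the 3 comparisons of matching arms, 1 of guides and 2 of passenger strands, the arm from chromosome 1 stood lower against its chromosome 19 counterpart in G12D than in WT. The 2 of passenger strands were added after the values were seen. How often ratios between other hairpins part the groups in this way was not tested. For scale, groups did not overlap, in either direction, for 19.1% of the 68 arm ratios within hairpins and 29.5% of tested miRNAs. Among the guides there were 53.1, 53.7 and 51.0 reads of miR-215-5p per 100 of miR-192-5p in G12D, against 79.9, 60.1 and 69.6 in WT. The G12D libraries lay close together and below all WT libraries, with a mean of 52.6 ± 1.43 in G12D and 69.9 ± 9.89 in WT (SD, n = 3 each) and a log2 difference of -0.40 (exact permutation test, p = 0.1, adjusted 0.2). Because these guides share a seed, the sum of their reads was also taken, and it made up 4.93 ± 0.444% of reads in G12D and 4.98 ± 0.638% in WT (exact permutation test, p = 0.8, n = 3 each).

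The passenger strands were compared in the same way after the values had been seen. There were 11.3, 4.14 and 3.95 reads of miR-194-1-3p per 100 of miR-194-2-3p in G12D, against 39.0, 15.3 and 18.2 in WT, a log2 difference of -1.96 (exact permutation test, p = 0.1, adjusted 0.25 over 5 ratios). There were 114, 127 and 117 reads of miR-215-3p per 100 of miR-192-3p in G12D, against 208, 206 and 152 in WT, a log2 difference of -0.65 (exact permutation test, p = 0.1, adjusted 0.25). The last ratio rests on few reads, 49, 47 and 41 of miR-215-3p and 43, 37 and 35 of miR-192-3p in G12D. In WT it rests on 81, 64 and 85 of miR-215-3p and 39, 31 and 56 of miR-192-3p. Neither passenger ratio overlapped between the groups, but whether counting error alone could part them was not tested. All 3 ratios kept their sign without any 1 library, with log2 differences from -0.51 to -0.30, from -2.45 to -1.55 and from -0.80 to -0.57 in the order given. The groups overlapped for the 2 most abundant guides, with 71.9, 47.6 and 47.8 reads of miR-192-5p per 100 of miR-194-5p in G12D, against 67.0, 41.5 and 62.0 in WT (log2 difference -0.025, exact permutation test, p = 1). The ratio of miR-215-5p to miR-194-5p overlapped between groups, with 38.2, 25.6 and 24.4 per 100 in G12D, against 53.6, 24.9 and 43.2 in WT (exact permutation test, p = 0.3, adjusted 0.4).

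**Figure D4:**
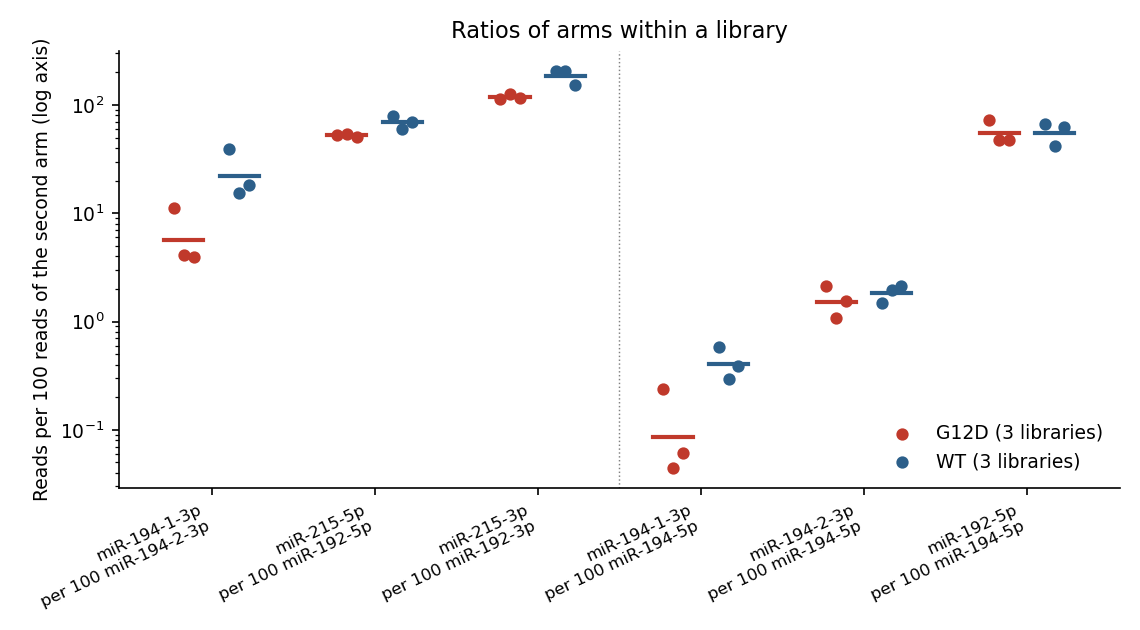
Reads of the first-named arm per 100 reads of the second (log axis), with G12D in red left of WT in blue. Points are libraries and bars are geometric means of 3. Left of the dotted line are the 3 ratios of a chromosome 1 arm to its chromosome 19 counterpart, each lower in G12D with no overlap, and right of it are 3 ratios to miR-194-5p, of which that of miR-194-1-3p did not overlap.

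The miRNAs next above and below each member in the order of levels are given for scale. Picked as nearest in mean, they could hardly lie beyond the spread over the 6 libraries. miR-194-5p (24414 ± 6540 normalized reads, SD over 6 libraries) lay between miR-21a-5p, a widely studied oncogenic miRNA (30097 ± 8528), and the epithelial miR-200c-3p (22466 ± 3599). miR-192-5p (13318 ± 2816) lay between miR-429-3p of the miR-200 family (14769 ± 3793) and miR-30a-5p (12977 ± 2182). miR-215-5p (8013 ± 1568) lay between the enteroendocrine miR-375-3p (8031 ± 1301) and miR-27b-3p (7978 ± 1612), and miR-194-1-3p (55.9 ± 36.8) between miR-425-3p (56.2 ± 30.0) and miR-503-5p (55.8 ± 7.18).

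Which miRNAs varied most like each member over the 6 libraries differed from member to member. By Pearson's r of log2(normalized reads + 1), a description over libraries that share their genotype and scaling factor, miR-192-5p was closest to miR-92a-3p (0.976), miR-425-5p (0.973) and miR-21a-5p (0.967). miR-194-5p was closest to miR-501-5p (0.959), miR-30d-5p (0.943) and miR-182-5p (0.889), and miR-215-5p to miR-16-5p (0.947), miR-23b-3p (0.926) and miR-33-5p (0.889). miR-194-1-3p was closest to miR-29a-5p (0.959), miR-449a-5p (0.958) and miR-146b-5p (0.943). Among the members r was 0.63 for miR-192-5p with miR-194-5p, 0.64 for miR-192-5p with miR-215-5p, 0.013 for miR-194-5p with miR-215-5p and -0.78 for miR-194-5p with miR-194-1-3p.

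The pulldown mRNA libraries gave the other side of these complexes, the RNA sites held by Ago2. A peak was counted for a miRNA where the deposited annotation gave a match of at least 7 bases to nucleotides 2 to 8, which does not show that this miRNA held Ago2 there. miR-194 had 273 such peaks, 4.92% of the 5554 merged peaks, and miR-192 and miR-215 together, through their common seed, had 32, or 0.576%. In the miRNA libraries miR-194-5p took 5.94% of reads in G12D and 5.34% in WT, and miR-192-5p and miR-215-5p together took 4.93% in G12D and 4.98% in WT. Only 2 peaks held both kinds of match, in Ncoa3, a nuclear receptor coactivator gene, and Fut2, a fucosyltransferase gene.

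Of the 32 peaks with a match to the seed of miR-192 and miR-215, 19 were in 3′ UTRs, 9 in exons and 2 in introns. In the authors' lists 22 were called in G12D only, 1 in WT only and 9 in both, beside 4275, 445 and 834 of all 5554 merged peaks. Of the 32, 29 were tested. Of these 9 rose and 4 fell in G12D (31.0 and 13.8%), beside 48.9% of all tested peaks that passed, 36.2% that rose and 12.7% that fell. Their median log2 fold change was 0.49, against 1.05 for all tested peaks. The share of peak reads at these sites was 0.289, 0.398 and 0.340% in G12D, against 0.382, 0.342 and 0.490% in WT (exact permutation test, p = 0.4). These shares of calls were near those of all peaks. The direction depended on the scaling: with quantile normalization 4 rose and 6 fell (median -0.10), with edgeR and TMM 6 rose and 6 fell (median -0.015), and over all tested peaks 1607 rises and 563 falls became 873 and 802, and 1093 and 895, with medians of 0.16 and 0.47. Without G12D replicate 2, the deepest library, 4 rose and 3 fell, beside 867 that rose and 441 that fell among all tested peaks. Of the 9 miR-192 and miR-215 peaks in both genotypes' lists 0 rose and 3 fell. Among all 828 tested peaks in both lists 105 rose and 207 fell. Input libraries were not analysed here, so more Ago2 at a site and more of its transcript cannot be told apart, nor fewer cells of a type and less RNA per cell.

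The largest fall was at the site with the highest mean of the set, in an exon of Cnnm4, a magnesium transporter gene (chr1:36472661-36472724). It had 19.6, 29.5 and 33.0 normalized reads in G12D, against 352, 188 and 490 in WT. Every WT library lay several-fold above every G12D library, and the log2 fold change was -3.53 ± 0.41 (SE, limma, adjusted p = 0.000178). The other falls were in Spg20, a peak in the WT list only, with 3.33 ± 1.07 normalized reads in G12D and 39.2 ± 23.2 in WT, Mier3, with 6.57 ± 3.26 in G12D and 45.6 ± 22.0 in WT, and the RNA helicase gene Ddx3x, with 7.31 ± 2.21 in G12D and 25.6 ± 8.62 in WT (SD, n = 3 each). Only called sites whose groups did not overlap were named as falls, Cnnm4 included, so the lack of overlap adds nothing. Ddx3x did not pass without G12D replicate 2 (adjusted p = 0.0771) or WT replicate 1 (0.0509). Spg20 passed the filter on low values through WT alone, so its values are a description.

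The sites with the largest rises, Nr3c2, Uty, Kdm6a, Mgat4a, Myo1c and Npc1, were all in the G12D list only. All of these passed the filter on low values through G12D alone, so their values, and the calls given below, are a description. The intron site of Nr3c2, which encodes the mineralocorticoid receptor, had 8, 67 and 15 reads in G12D and none in any WT library, so it was at least 6.67-fold higher in G12D against a floor of 3 reads over the WT group. The histone demethylase genes Kdm6a, with 115 reads in G12D and 1 in WT, and Uty, with 173 reads in G12D and 1 in WT, are an X and Y pair of similar sequence, so their reads may be shared and their values are uncertain. As Uty lies on the Y chromosome, its reads also depend on the sex of the animals, and whether the groups differed in sex was not tested. Mgat4a, a glycosyltransferase gene, had 116 reads in G12D and 2 in WT, a 12.9-fold ratio after scaling (exact 95% counting interval 3.49 to 108), and the unconventional myosin gene Myo1c had 75 reads in G12D and 2 in WT (8.34-fold, 2.23 to 70.1). Npc1, a lysosomal cholesterol transporter gene, had 20.2 ± 3.30 normalized reads in G12D and 3.99 ± 3.87 in WT (SD, n = 3 each; log2 fold change 2.55, limma, adjusted p = 0.0196), but it did not pass without any 1 of the G12D libraries (adjusted p up to 0.0925) or with edgeR and TMM (0.0679). Uty, Kdm6a, Mgat4a and Myo1c did not pass with quantile normalization (adjusted p 0.0572 to 0.210).

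Among the other sites with the highest means, that of the sulfate transporter gene Slc26a2 had 46.9, 96.8 and 43.1 normalized reads in G12D, against 12.7, 14.5 and 50.3 in WT, and it passed although the groups overlapped (log2 fold change 1.41 ± 0.54, SE, limma, adjusted p = 0.0479). This call was lost without any 1 library but WT replicate 3 (adjusted p up to 0.217). Nras, a gene of the same family as K-Ras, had 25.1, 34.5 and 38.1 normalized reads at its 3′ UTR site in G12D, against 40.3, 55.1 and 21.9 in WT (log2 fold change -0.19 ± 0.43, SE, limma, adjusted p = 0.732). Polr2a, the gene of the largest RNA polymerase II subunit, had 41.4, 42.1 and 53.1 in G12D, against 36.1, 23.2 and 14.2 in WT, which did not overlap and did not pass (limma, adjusted p = 0.0807), except without WT replicate 1 (0.0355).

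The miR-194 peaks, like all merged peaks, were mostly peaks of the G12D list. Of the 5554 merged peaks 4275 were in the G12D list only, 445 in the WT list only and 834 in both. Of the 273 miR-194 peaks, 228 were in the G12D list only, 6 in the WT list only and 39 in both. By class 112 were in 3′ UTRs, 63 in exons and 74 in introns. Of the 216 tested, 101 rose and 16 fell (46.8 and 7.41%), beside 36.2% and 12.7% of all tested peaks, and their median log2 fold change was 1.46, beside 1.05. Peaks that entered through the G12D list were chosen where G12D was high, so these counts are a description. With quantile normalization 63 rose and 26 fell (median 0.67), and of the 39 found in both genotypes' lists 5 rose and 10 fell (median -0.71), beside 105 that rose and 207 that fell among all 828 tested peaks in both lists (median -0.45). Fewer passed without G12D replicate 2 (58 higher, 17 lower) or G12D replicate 3 (52 higher, 11 lower). The same held for all tested peaks, with 867 higher and 441 lower, and 873 higher and 468 lower, in that order. The miR-194 peaks held 3.95, 5.02 and 4.19% of peak reads in G12D, against 2.39, 2.68 and 3.11% in WT, without overlap (exact permutation test, p = 0.1, adjusted 0.15). Because most of them entered through the G12D list, this share is a description too. It was not particular to miR-194: peaks with a miR-194-2-3p match held 0.741 ± 0.104% in G12D and 0.371 ± 0.0627% in WT (SD, n = 3 each), also without overlap. The annotation gives that seed to other miRNAs too, and 37 of these 42 peaks were in the G12D list only. For miR-194, over peaks in both lists alone, the difference was 0.781 percentage points, against 1.66 over all peaks (exact permutation test, p = 0.3). The share was higher in G12D within introns and exons and lower within 3′ UTRs, the region where most known miRNA sites lie. Within intron peaks the share was 17.1, 20.1 and 20.7% in G12D, against 4.58, 8.32 and 3.15% in WT, and within exon peaks it was 2.10, 3.52 and 2.22% in G12D, against 1.24, 1.27 and 1.69% in WT. Within 3′ UTR peaks it was 5.72, 5.64 and 5.61% in G12D, against 6.09, 6.22 and 6.79% in WT, lower in every G12D library.

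Both directions were found among the strongest miR-194 sites. The 3′ UTR site of S100a14, which encodes an epithelial calcium-binding protein, had 290, 444 and 609 normalized reads in G12D, against 983, 1226 and 1514 in WT (log2 fold change -1.51 ± 0.40, SE, limma, adjusted p = 0.00915). That of Dnajc5, a chaperone gene, had 454, 453 and 588 in G12D, against 76.4, 49.3 and 37.4 in WT (3.22 ± 0.35, SE, limma, adjusted p = 0.000144). These groups did not overlap, and S100a14 did not pass without G12D replicate 1 (adjusted p = 0.0682). The largest rises, both at peaks in the G12D list only, were in Dhrs9, a retinol dehydrogenase gene, with 565 reads in G12D and 2 in WT (62.8-fold after scaling, exact 95% counting interval 17.3 to 520), and in an intron of Zfand3, with 245 reads in G12D and 1 in WT (54.5-fold, 9.69 to 2161). The largest falls were in Abhd8, a peak in the WT list only, with 1.03 ± 0.897 normalized reads in G12D and 19.5 ± 4.54 in WT, and in Gnai3, a G protein subunit gene, with 32.0 ± 12.1 in G12D and 247 ± 144 in WT (SD, n = 3 each). Dhrs9 and Zfand3 passed the filter on low values through G12D alone and Abhd8 through WT alone, so their values are a description.

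**Figure D5:**
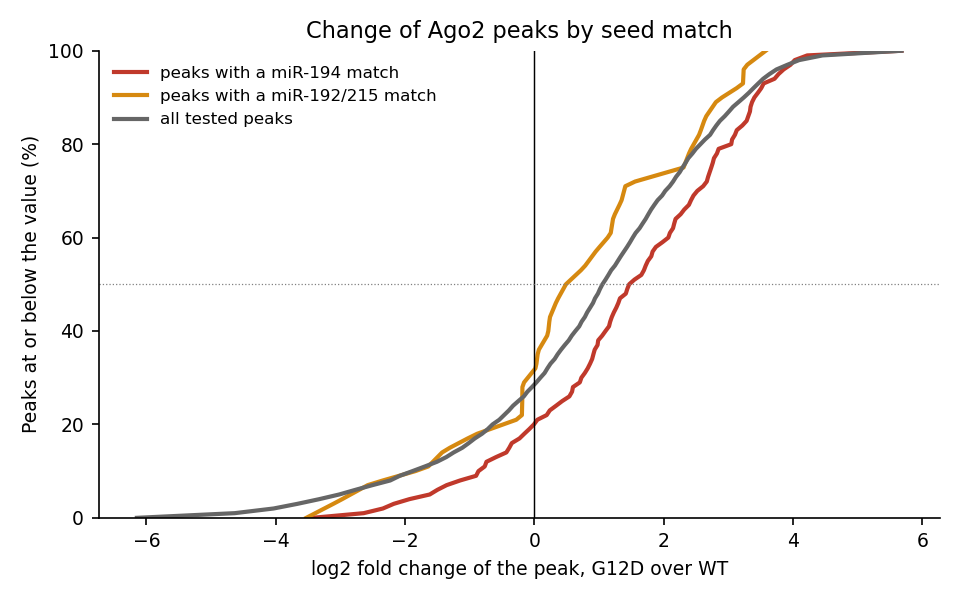
Cumulative distribution of the log2 fold change of Ago2 peaks, G12D over WT, for peaks with a miR-194 match (red, 216 tested), peaks with a match to miR-192 and miR-215 (orange, 29 tested) and all tested peaks (grey, 4438). At the dotted line the medians are 1.46, 0.49 and 1.05.

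Genes reported elsewhere as targets of these miRNAs were poorly covered. Of 16 genes listed for miR-192 and miR-215, 4 had a peak (Egr1, Rb1, Wnk1 and Xiap), and none of their peaks held a match for this seed. The 5 tested peaks of the list lay in only 3 genes and all rose, beside 36.2% of all tested peaks. A peak that entered through the G12D list was chosen where G12D was high, so this count is a description. Those named here were in the G12D list only, and that of Wnk1 passed the filter on low values through G12D alone. They were the peaks of the apoptosis inhibitor gene Xiap, with 130 ± 55.1 normalized reads in G12D and 8.78 ± 7.69 in WT, the tumour suppressor gene Rb1, with 30.6 ± 5.85 in G12D and 10.6 ± 13.2 in WT, and the kinase gene Wnk1, with 15.7 ± 3.41 in G12D and 0 in all WT libraries (SD, n = 3 each). For Rb1 the groups overlapped (limma, adjusted p = 0.0494). It did not pass without any 1 library but WT replicate 1 (adjusted p up to 0.176) or with edgeR and TMM (0.198). Only 2 peaks of the list passed without G12D replicate 2 or 3. Of 16 genes listed for miR-194, 6 had a peak, 3 of 11 tested peaks rose and 1 fell, near the 36.2% and 12.7% of all tested peaks, and the genes with a match of their own were Akt2, Dnmt3a, Foxa1 and Hbegf. The matched site in Foxa1, a forkhead transcription factor gene, had 110, 186 and 146 normalized reads in G12D, against 61.6, 75.4 and 124 in WT (log2 fold change 0.78 ± 0.37, SE, limma, adjusted p = 0.0969). That of Hbegf, a gene of an EGF receptor ligand, had 9.82, 22.3 and 23.0 in G12D, against 2.12, 2.90 and 14.2 in WT (1.68 ± 0.71, SE, limma, adjusted p = 0.0679). Without WT replicate 3 both passed (adjusted p = 0.0383 for Foxa1 and 0.0158 for Hbegf). Ep300, an acetyltransferase gene, had an exon peak without a match that rose (2.71 ± 0.56, SE, limma, adjusted p = 0.00261).

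Of 14 genes that regulate these hairpins or process miRNAs, 7 had a peak, and 3 of 10 tested peaks rose and 1 fell, again near the 36.2% and 12.7% of all tested peaks. The fall was in an exon of Hnf4a, a nuclear receptor gene known to activate the family, with 50.2, 38.0 and 61.0 normalized reads in G12D, against 82.8, 119 and 87.6 in WT (-0.95 ± 0.35, SE, limma, adjusted p = 0.0405). All G12D libraries lay below all WT libraries at this peak, but it did not pass when any 1 of the 6 libraries was left out (adjusted p 0.0507 to 0.134). Without G12D replicate 2 or 3, 1 peak of these genes passed, and 2 passed without WT replicate 3. The peaks of the processing genes Dicer1, with 33.9 ± 9.24 normalized reads in G12D and 20.6 ± 9.06 in WT, and Dgcr8, with 8.09 ± 6.33 in G12D and 19.8 ± 21.4 in WT (SD, n = 3 each), did not pass (limma, adjusted p = 0.188 for Dicer1 and 0.456 for Dgcr8).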

How the data were processed

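Per the submitters' processing notes, STAR 2.5.2b and DESeq2 were used with mm10 and GRCm38. Peak calling and read counting are not described in the labels. The deposited normalized tables hold a signal, the reads of a miRNA or merged peak over 1 factor per library. Multiplied back, 100.0% of values were whole numbers of reads to within 0.01. Per the file headers, the authors' tables give log2 fold changes with standard errors, p-values and adjusted p-values. The deposited peak lists carry the authors' score, which was not used in a test. Per the file headers, class, gene and seed match of each peak come from the authors. No column of values lacked a sample (0 in both tables). Peak columns are named by genotype and replicate number, and were read as the mRNA pulldown.

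The main test was limma 3.58.1 (R 4.3.3) with a variance trend on log2(normalized reads + 1), adjusted by Benjamini-Hochberg over all features with a mean of at least 10 (miRNAs) or 5 (peaks) normalized reads, with a threshold of 0.05; this scale understates changes of low features. In the fit over hairpins the trend followed the level of the rarer arm. Ratios and shares were compared by exact permutation over libraries, two-sided. edgeR 4.0.16 (quasi-likelihood) and DESeq2 1.42.0 on the recovered reads, other pseudocounts, filters and scalings, the replicate number as a block and each library left out were alternatives. The limma fits of miRNAs and peaks were tested on simulated data. For arm ratios only the version with the trend on the mean log2 ratio was simulated. The reported fit over hairpins, edgeR and DESeq2 were not. Peaks were named by a rule: the called sites with the largest changes without overlap and those with the highest means. The members, lists and tests were chosen with earlier results of these data known, and the ratios of passenger strands between hairpins, 1 scaling and 1 variance trend were added after the values were seen.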

Additional observations from a re-analysis of the deposited data

How the results depend on the processing

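Of the settings tried, miR-194-1-3p kept its direction in all 18, but its call was lost without a variance trend (-1.65); without 1 library it lay between -2.21 and -1.29. The log2 fold change of miR-192-5p lost its call with DESeq2 (0.44), edgeR with TMM (0.30), edgeR with the deposited factors (0.50), scaling to the median ratio of abundant miRNAs (0.37), quantile normalization (0.056), equal totals (0.14), and, at 0.51, with a mean of at least 50, no filter, no variance trend, a pseudocount of 0.5 or the replicate block. That of miR-194-5p lost it with DESeq2 (0.47), edgeR with TMM (0.32), the median ratio (0.39), quantile normalization (0.013), equal totals (0.17), and, at 0.53, with a mean of at least 50, no filter or no variance trend. Without 1 library they lay between 0.42 and 0.64 and between 0.37 and 0.70. miR-215-5p turned negative with edgeR and TMM (-0.13), the median ratio (-0.033), quantile normalization (-0.27) and equal totals (-0.26), and lay between -0.043 and 0.34 without 1 library. The sign of miR-215-3p turned with quantile normalization (0.12; -0.28 to 0.12 without 1 library), that of miR-194-2-3p with equal totals (-0.10), that of the ratio of miR-192-5p to miR-194-5p without 1 library (-0.24 to 0.11), and that of the arms of miR-192 likewise (-0.18 to 0.34 in the fit, -0.18 to 0.36 as a ratio). The causes were not tested.

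The number of miRNAs called, 40, was 24 with a mean of at least 50, 18 without a variance trend, 25 with the replicate block and 21 to 49 without 1 library. For the arm ratio of miR-194-1 (-2.18; -2.90 to -1.71 without 1 library) the call was lost without a variance trend, with the trend on the mean ratio and with the replicate block; 4 hairpins were called with no filter and 0 with no variance trend (8 had an unadjusted p under 0.05), the replicate block (6) and the trend on the mean ratio (8), and 0 to 8 without 1 library. For peaks of miR-192 and miR-215, 13 called became 7 in 3′ UTRs, 5 at a mean of at least 20, 3 in both lists and 3 with 8-mers, and for miR-194, 117 became 43, 38, 15 and 64 in that order; without 1 library there were 7 to 13 and 63 to 138. The miR-194 share, higher by 1.66 percentage points, was lower by 0.711 (-0.711) in 3′ UTR peaks. The 5 called peaks of the gene list of miR-192 and miR-215 became 3 with edgeR, 2 at a mean of at least 20, 3 with quantile normalization and 2 to 5 without 1 library. The 4 of the miR-194 list became 1 at a mean of at least 20, and the 4 of the regulators 1 at that mean, 7 with no filter and 1 to 3 without 1 library. Same-numbered libraries did not deviate together (r of -0.00031, -0.42 and -0.32 for miRNAs, 0.041, -0.036 and -0.0076 for peaks), so the numbers were not taken as pairs; with the replicate block, 13 and 120 family peaks were called. Depth limits miR-194-1-3p, which rests on 68 reads in G12D and 309 in WT, and peaks in the shallower WT libraries. It also limits miR-215-3p (137 reads in G12D, 230 in WT) and miR-192-3p (115 in G12D, 126 in WT).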
